A study of Mus musculus with 2 samples.

Results

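Cldn3, Cldn4, Cldn6, Cldn7, Cldn10, Ocln, Tjp1, Cdh1 and Epcam, 9 genes of epithelial cell junctions, were followed by name in single cells of the mouse oviduct, through the authors' own cluster numbers. All 9 were in both deposited count tables, that of adult oviduct (27998 genes) and that of oviduct at postnatal day 4 (P4, 53573 genes), which share 26897 genes. The adult library came from C57BL/6 mice at estrus and the P4 library from C57BL/6 pups, with no estrous stage. In both, cells were released with enzymes, live epithelial cells were enriched by sorting on Epcam and CD45, and 10x Chromium 3' V2 libraries were made. The number of animals is not given in the labels, and no group carries a transgene or treatment there. The series asks whether the epithelium near the ovary and that near the uterus are separate lineages; no label ties a cluster to either end.

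Epithelial sheets are sealed by tight junctions, in which claudins form the paracellular barrier or, for some claudins, ion-selective pores. Occludin, the product of Ocln, lies in the same strands, and Tjp1 encodes ZO-1, the scaffold that links them to actin. Beneath them, E-cadherin, the product of Cdh1, holds cells together in adherens junctions, and Epcam is a surface protein of epithelial cells known in mouse and human to bind claudin-7. In the oviduct this lining is built of multiciliated cells, whose cilia beat, and secretory cells, which produce the fluid around the egg.

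The adult library held 406 cells with a median of 3232 UMI (range 502 to 16207) and the P4 library 263 cells with a median of 7585 UMI (1331 to 23372). A UMI is 1 counted RNA molecule. Of the adult cells, 401 stood in the table under 2 column prefixes and were counted once, and no barcode was shared between the ages. The 9 genes gave 2382 UMI in adult cells and 3434 UMI in P4 cells. A level below is the pooled UMI of a gene per 10000 UMI of the group, with an exact 95% Poisson interval in brackets that covers counting error only. Counts come from transcript ends and were not divided by length, so levels are compared within a gene and never between genes. Each age is 1 library: there is no replicate to check a value against, no p-value was computed, and age cannot be told apart from library, sort, depth or gene annotation. The authors drew the clusters on these same cells, so a difference between clusters is a description.

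Clusters are named by number, with the summed level of fixed marker genes. Secretory markers stood at 385 per 10000 in adult cluster 4 (31 cells) and 108 in cluster 0 (130 cells), against 33.4 in cluster 3 (37 cells) and 12.5 in cluster 1 (183 cells). Multiciliated markers stood at 5.0 in cluster 4 and 3.06 in cluster 0, against 122 in cluster 3 and 167 in cluster 1. Adult cluster 5 had 25 cells, 8 of them with at least 10 smooth muscle UMI per 10000. The 8 are called cells with smooth muscle genes below, and the other 17 cells together held 6 smooth muscle UMI. These 8 cells also carried epithelial junction genes: Epcam was counted in 6 of them and Cldn7 in 6, and Cldn4 in none. At P4, cluster 1 had 95 cells, with secretory markers at 31.4 and multiciliated markers at 1.92, and cluster 0 had 168 cells, with 17.2 and 9.49. Median depth was 1185 UMI in adult cluster 4 and between 3165 and 4107.5 in the other adult clusters. Checked for the epithelial label, keratins and other epithelial markers summed to 47.4 per 10000 in adult cells and 37.3 in P4 cells, while fibroblast markers summed to 2.17 and 6.86. Ptprc, which encodes CD45, had no UMI in either library.

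On GRCm38, Cldn3 (chromosome 5, 134986214 to 134987472, plus strand) and Cldn4 (chromosome 5, 134945119 to 134946934, minus strand) lie back to back, with 39279 bases and no annotated gene between them. Cldn6 lies at chromosome 17, 23679249 to 23682446 (plus), 137 bases from Cldn9. Epcam is on the same chromosome at 87635979 to 87651129 (plus). Cldn7 lies at chromosome 11, 69964779 to 69967885 (plus), Cldn10 at chromosome 14, 118787908 to 118875489 (plus), and Ocln at chromosome 13, 100496507 to 100552718 (minus). Tjp1 lies at chromosome 7, 65296165 to 65527781 (minus), and Cdh1 at chromosome 8, 106603351 to 106670246 (plus). No exon of another gene lay over theirs on the same strand. An antisense gene, Wbscr25, overlaps an exon of Cldn3 and had 5 UMI in adult cells and 12 in P4 cells; the strand setting of the counting is not given in the sources used here, so reads of such pairs cannot be told apart.

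The 250 bases upstream of the transcription start, from RefSeq on GRCm38.p6, are shown for the divergent neighbours Cldn4 and Cldn3, whose RNA was distributed differently over cells, and for Epcam, the gene of the sort. Capitals mark CACCTG, the E-box read by Snail and Zeb repressors of epithelial genes, and TGANTCA, the AP-1 site, on either strand.
Cldn4, chr5:134946935-134947184, minus strand: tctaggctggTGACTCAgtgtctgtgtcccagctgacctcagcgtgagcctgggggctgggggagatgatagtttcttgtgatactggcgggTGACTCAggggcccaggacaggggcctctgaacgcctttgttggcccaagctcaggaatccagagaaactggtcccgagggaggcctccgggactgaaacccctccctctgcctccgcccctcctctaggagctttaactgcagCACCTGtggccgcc
Cldn3, chr5:134985964-134986213, plus strand: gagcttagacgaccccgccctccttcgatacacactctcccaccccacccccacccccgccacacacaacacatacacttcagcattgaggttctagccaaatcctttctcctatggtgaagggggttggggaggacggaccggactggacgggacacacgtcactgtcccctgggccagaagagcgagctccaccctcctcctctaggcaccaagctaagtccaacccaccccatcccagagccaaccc
Epcam, chr17:87635729-87635978, plus strand: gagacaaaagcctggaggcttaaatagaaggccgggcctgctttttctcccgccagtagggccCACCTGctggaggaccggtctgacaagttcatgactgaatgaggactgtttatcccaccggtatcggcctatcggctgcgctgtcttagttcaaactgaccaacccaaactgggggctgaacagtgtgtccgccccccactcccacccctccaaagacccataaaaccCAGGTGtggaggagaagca

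The Cldn4 window holds 2 AP-1 matches and 1 E-box, the Epcam window 2 E-boxes, and the Cldn3 window neither. Among 32851 windows of the same length, TGANTCA occurred in 6.75% and CACCTG in 17.2%. Windows were found for 8 of the 9 genes, 11 windows in all. None of the 11 held AACCGGTT, the site of grainyhead-like factors (0.116% of all windows), or TATAAA (12.4%), and none but that of Cldn4 held TGANTCA. These matches are letters in a window and were not read as binding.

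**Figure D1:**
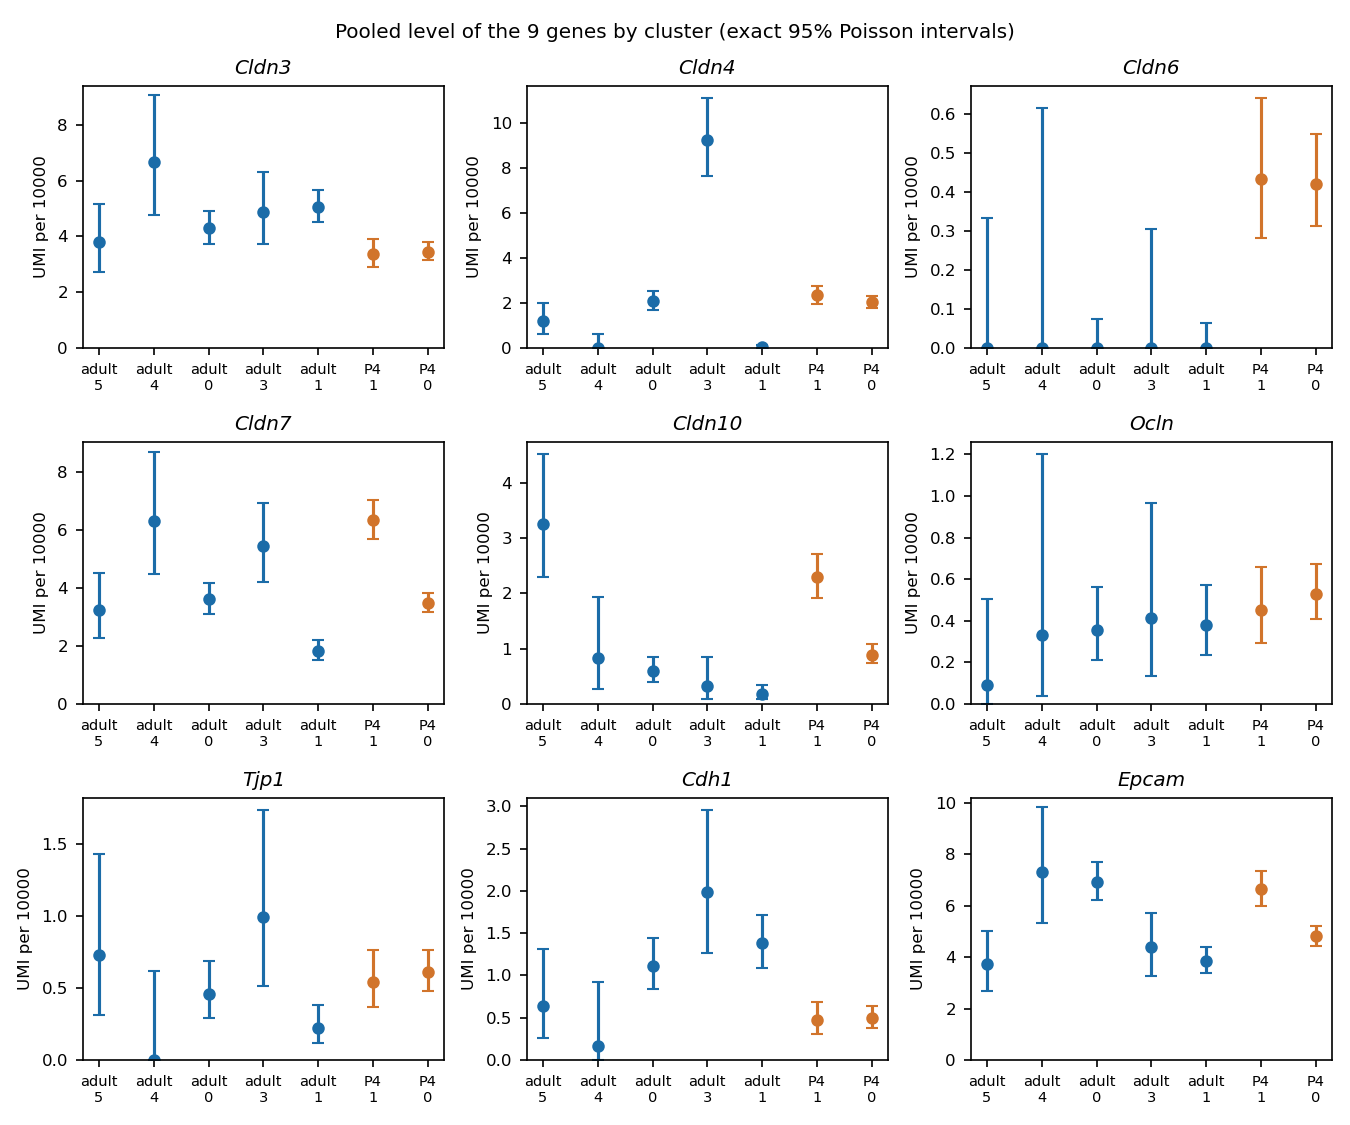
Pooled level of each of the 9 genes (UMI per 10000 UMI, vertical axis) in the 5 adult clusters (blue) and the 2 P4 clusters (orange), with exact 95% Poisson intervals. Cldn4 stands at 9.26 in adult cluster 3 and at 0 in adult cluster 4, Cldn6 has counts in the P4 clusters only, and Cldn3 lies between 3.38 and 6.66 throughout.

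Cldn3, a sealing claudin, stayed between 3.38 and 6.66 per 10000 in all 7 clusters. It stood at 3.81 (2.74 to 5.15) in adult cluster 5, 6.66 (4.76 to 9.07) in 4, 4.29 in 0, 4.88 in 3 and 5.06 in 1, against 3.38 in P4 cluster 1 and 3.45 in P4 cluster 0. Ordered by level, no neighbouring pair of clusters differed beyond counting error. A Cldn3 UMI was counted in 246 of 406 adult cells (60.6%) and in 212 of 263 P4 cells (80.6%). Every cell of at least 1000 UMI was also thinned to 1000, over all genes of its table, which is called equal depth below. The shares were then 33.9% (exact interval 28.7 to 39.3) of 322 adult cells and 25.5% (20.3 to 31.2) of 263 P4 cells. That is the opposite order, with intervals that overlap. The pooled level was 4.73 in adult cells and 3.43 in P4 cells, a log2 fold of 0.45 and a ratio interval of 1.23 to 1.54. The level was higher in the adult library by less than 2-fold.

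Cldn4, also a sealing claudin, which binds Clostridium enterotoxin, was distributed over cells in another way. Adult cluster 3 held 112 UMI, a level of 9.26 (7.63 to 11.1). Cluster 0 held 105 UMI (2.08, 1.70 to 2.52), cluster 5 held 13 (1.18), cluster 1 held 3 (0.0516) and cluster 4 none, with an upper bound of 0.615. The P4 clusters stood close together, at 2.34 (1.96 to 2.77) in cluster 1 and 2.04 (1.79 to 2.3) in cluster 0. In the order of levels, adult cluster 3 stood apart from P4 cluster 1 below it (ratio interval 3.05 to 5.12), and adult cluster 5 from adult cluster 1 (6.28 to 125). Both intervals treat UMI as independent, while 63 of the 112 UMI in cluster 3 lay in 4 cells and 12 of the 13 in cluster 5 lay in 2.

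Within adult cluster 3, Cldn4 was counted in 15 of 37 cells (40.5%, exact interval 24.8 to 57.9), with a median of 6 UMI in those cells and up to 18. In cluster 1, whose cells carry the same multiciliated markers, 3 of 183 cells had a UMI (1.64%), each with 1. Background from free RNA was not measured, so these single UMI cannot be assigned to it or to the cells. In cluster 0 the gene was counted in 28 of 130 cells (21.5%) with up to 19 UMI in a cell, and in cluster 4 in 0 of 31 cells, which allows up to 9.68% of cells with a UMI by the limit of 3 counts, or 11.2% by the exact interval, at a median depth of 1185 UMI. The cells of cluster 3 with Cldn4 were deeper than those without it, with medians of 4242 and 1531 UMI. At equal depth the share was 10 of 29 cells (34.5%) in cluster 3 and 2 of 141 (1.42%) in cluster 1. It was 10 of 112 cells (8.93%) in cluster 0 and 0 of 19 in cluster 4, which allows up to 17.6% by the exact interval.

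Over whole libraries the level of Cldn4 lay within 2-fold, 1.69 (1.48 to 1.92) in adult cells and 2.13 (1.93 to 2.35) in P4 cells, with a ratio interval of 0.672 to 0.936. It was counted in 49 of 406 adult cells (12.1%) and in 154 of 263 P4 cells (58.6%). At equal depth the shares were 7.45% (4.83 to 10.9) of adult cells and 16.3% (12.1 to 21.4) of P4 cells, so the order stayed. At equal depth the variance of Cldn4 UMI was 3.12 times the mean in adult cells and 1.70 times in P4 cells. A value of 1 is what independent sampling of molecules would give. By cluster it was 2.98 in adult cluster 3 and 2.88 in adult cluster 0, and 1.04 in P4 cluster 1 and 1.99 in P4 cluster 0. For Cldn3, the neighbour on the chromosome, it was 1.27 in adult and 0.911 in P4 cells, and 2.34 within adult cluster 3.

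In the same thinned cells, Cldn3 was counted in 12 of 24 adult cells with Cldn4 and in 32.6% of adult cells without it. At P4 it was counted in 10 of 43 cells with Cldn4 (23.3%) and in 25.9% of those without. In adult cluster 3 it was found in 5 of 10 cells with Cldn4, against 5.26% of the others. This pair was chosen for its shared locus, and the counts are small.

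**Figure D2:**
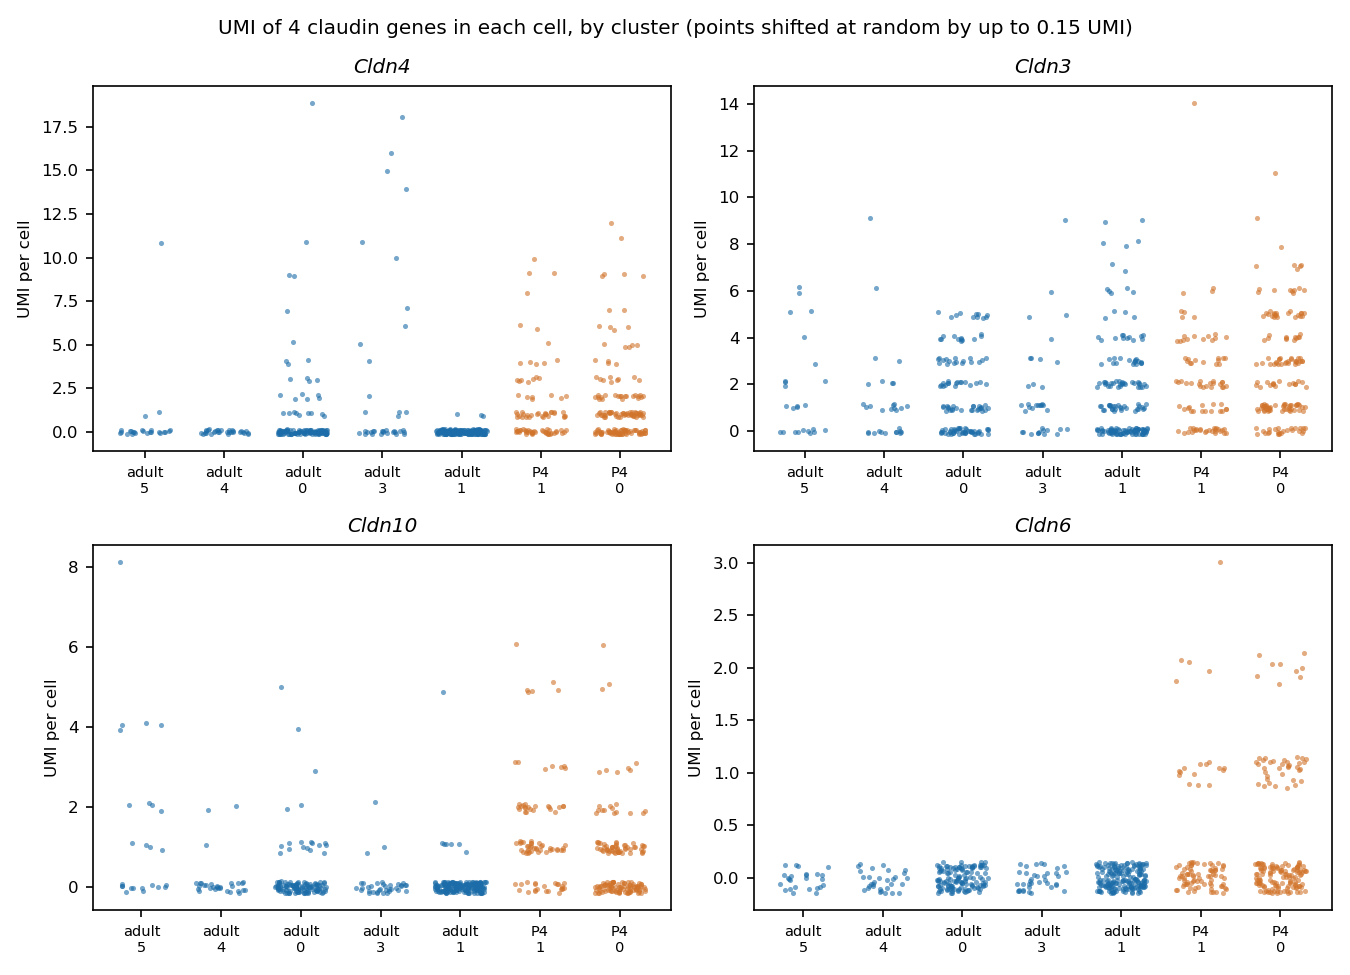
UMI per cell (vertical axis, points shifted at random by up to 0.15) of Cldn4, Cldn3, Cldn10 and Cldn6 in each adult (blue) and P4 (orange) cell, by cluster. A few cells of adult clusters 3 and 0 carry up to 18 and 19 Cldn4 UMI while nearly all cells of cluster 1 have none; Cldn3 is spread over cells of every cluster.

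**Figure D3:**
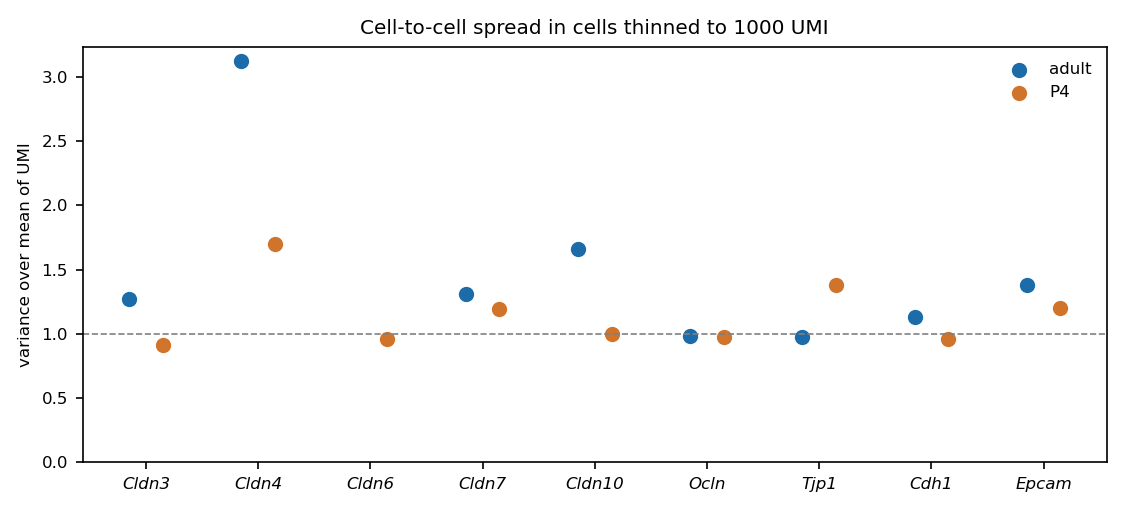
Variance over mean of UMI per cell (vertical axis) for the 9 genes in cells thinned to 1000 UMI, with adult cells in blue to the left of P4 cells in orange; the dashed line marks 1. Cldn4 stands at 3.12 in adult cells and 1.70 in P4 cells, and adult Cldn6 has no point because it has no UMI.

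Cldn7, which forms a complex with Epcam, was counted in every cluster at both ages. Its level was 3.26 in adult cluster 5, 6.33 (4.48 to 8.69) in 4, 3.61 in 0, 5.46 (4.22 to 6.94) in 3 and 1.84 (1.51 to 2.22) in 1, and 6.35 (5.71 to 7.03) in P4 cluster 1 and 3.48 (3.17 to 3.83) in P4 cluster 0. P4 cluster 1 and adult clusters 4 and 3 formed the upper group, whose neighbours did not differ beyond counting error, and adult cluster 1 stood below all others. Within P4, the log2 fold of cluster 1 over 0 was 0.85 (ratio interval 1.58 to 2.10), just under 2-fold. Epcam stood at 6.66 in P4 cluster 1 and 4.81 in P4 cluster 0 (log2 fold 0.46, ratio interval 1.22 to 1.58).

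Cldn10, a pore-forming claudin with several isoforms in mouse, was highest in adult cluster 5. Its level there was 3.26 (2.29 to 4.52). In the 17 cells of that cluster below 10 smooth muscle UMI per 10000 it was 6.44 (4.46 to 9.0), and 12 of them had a UMI. In the 8 cells with smooth muscle genes it had 2 UMI, both in 1 cell. It stood at 0.833 in adult cluster 4, 0.595 in 0, 0.331 in 3 and 0.189 in 1. At P4 it stood at 2.29 (1.92 to 2.71) in cluster 1, where 72 of 95 cells had it, and 0.895 (0.737 to 1.08) in cluster 0, where 75 of 168 had it. With all 25 cells of adult cluster 5, that cluster and P4 cluster 1 did not differ beyond counting error. The interval of the 17 cells, 4.46 to 9.0, lay above that of P4 cluster 1, 1.92 to 2.71. P4 cluster 1 stood apart from P4 cluster 0. The isoforms cannot be separated in a count per gene.

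Cldn6, a claudin of embryonic and newborn mouse epithelia, was counted at P4 and not in the adult library. P4 cells held 78 UMI in 63 of 263 cells (24.0%, exact interval 18.9 to 29.6), with at most 3 in a cell. Adult cells held 0 UMI in 406 cells, which allows up to 0.739% of cells with a UMI by the limit of 3 counts, or 0.904% by the exact interval. That limits cells with a UMI at this depth, not cells that express the gene. The level at P4 was 0.434 (0.281 to 0.640) in cluster 1 and 0.420 (0.314 to 0.549) in cluster 0, so both P4 clusters had it alike within counting error. It was at least 15.5-fold lower in adult cells by the exact ratio interval, or 19.5-fold against a floor of 3 counts over the adult library. At equal depth 0 of 322 adult cells and 12 of 263 P4 cells (4.56%) had a UMI.

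Ocln was sparse and showed no cluster that stood apart. It had 48 UMI in adult cells (0.349, 0.257 to 0.462) and 93 in P4 cells (0.506, 0.408 to 0.619), and adult clusters 4 and 5 had only 2 and 1. Tjp1 had 56 adult UMI (0.407) and 108 P4 UMI (0.587). Its level was 0.725 in adult cluster 5, 0.456 in 0, 0.993 (0.513 to 1.73) in 3 and 0.224 (0.119 to 0.382) in 1, against 0.538 in P4 cluster 1 and 0.610 in P4 cluster 0. Adult cluster 4 had no Tjp1 UMI, with an upper bound of 0.615, above the level of cluster 0, so an absence there was not detectable at this depth.

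Cdh1 was higher in the adult library. It had 168 UMI in adult cells (1.22, 1.04 to 1.42) and 90 in P4 cells (0.489, 0.393 to 0.601), a log2 fold of 1.16 with a ratio interval of 1.92 to 3.26. By cluster it stood at 0.635 in adult cluster 5, 0.167 (1 UMI) in 4, 1.11 in 0, 1.99 (1.27 to 2.95) in 3 and 1.38 in 1, against 0.468 in P4 cluster 1 and 0.499 in P4 cluster 0. The raw shares of cells were close, 27.3% of adult and 28.1% of P4 cells, while at equal depth they were 8.07% (5.34 to 11.6) and 4.18% (2.11 to 7.36). The log2 fold was 0.76 in thinned cells, 0.89 for a mean over cells and 0.80 with a larger pseudocount, each under 2-fold, and between 1.04 and 1.31 under the other 6 alternatives.

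Epcam was used in the sort, so its presence in these cells is set in part by the gate. It had 711 UMI in adult cells (5.16, 4.79 to 5.56) and 991 in P4 cells (5.39, 5.06 to 5.73), and the ratio interval of 0.869 to 1.06 includes 1. By cluster it stood at 3.72 in adult cluster 5, 7.33 in 4, 6.92 (6.22 to 7.69) in 0, 4.38 in 3 and 3.85 (3.37 to 4.39) in 1. Adult clusters 4 and 0 and P4 cluster 1 did not differ beyond counting error, and P4 cluster 1 stood apart from P4 cluster 0 below it. A UMI was counted in 250 of 406 adult cells (61.6%) and 227 of 263 P4 cells (86.3%), and at equal depth in 103 of 322 adult cells and 110 of 263 P4 cells (41.8%). Of the 8 cells with smooth muscle genes, 6 had an Epcam UMI.

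The number of the 9 genes counted in a cell had a median of 2 in adult and 5 in P4 cells, and of 1 at both ages at equal depth. At equal depth 31.4% of adult cells and 19.4% of P4 cells had none of the 9. In adult cluster 5 only 1 of 21 thinned cells had none.

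Folds below carry a pseudocount of 0.1 per 10000, and ratio intervals carry none. A gene counts as measured where 1 of the sides had a UMI of it in 10% or more of its cells, and as past the threshold where it was measured and differed 2-fold or more. Beside the 9 genes, 89 further junction genes were followed, of which 81 are in the adult table and 82 in the P4 table.

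**Figure D4:**
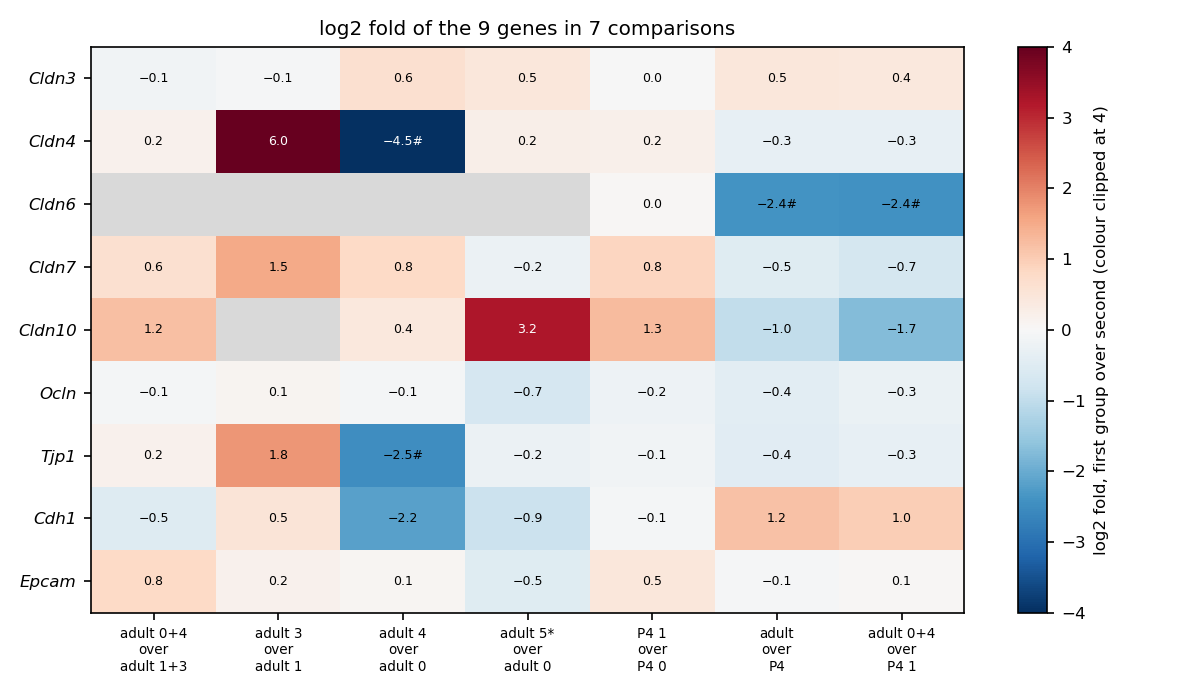
log2 fold of the 9 genes (rows) in 7 comparisons (columns, first group over second), clipped in colour at 4; grey cells were not measured, # marks 0 counts on 1 side, where the value depends on the pseudocount, and 5* is adult cluster 5 without its 8 cells with smooth muscle genes. Cldn4 stands at 5.95 in adult 3 over 1 and Cldn10 at 3.23 in adult 5 over 0, while Cldn3 and Epcam stay within 2-fold in every column.

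Adult clusters 0 and 4 were set over clusters 1 and 3, the cells with secretory over those with multiciliated markers. Of 8 measured members 1 was past 2-fold, Cldn10, at 0.621 in clusters 0 and 4 and 0.214 in clusters 1 and 3 (35 and 15 UMI, log2 fold 1.20, ratio interval 1.55 to 5.73). The threshold was passed by 35.6% of all 5184 measured genes, 11.1% higher and 24.5% lower. Epcam stood at 6.97 in clusters 0 and 4 and 3.94 in clusters 1 and 3 (log2 fold 0.81) and Cldn7 at 3.90 and 2.46 (0.64), both with ratio intervals above 1. With a mean over cells Epcam was past 2-fold (log2 fold 1.26) and Cldn10 was not (0.95). Epcam was also past 2-fold with totals without ribosomal protein and mitochondrial genes (1.07). Cdh1 stood at 1.01 in clusters 0 and 4 and 1.48 in clusters 1 and 3 (log2 fold -0.51, ratio interval 0.485 to 0.951). The members' median log2 fold was 0.16, against -0.26 over all measured genes. Without cluster 3 on the lower side, Cldn4 had a log2 fold of 3.69 and Cldn7 of 1.04, against 0.17 and 0.64 with it. Scaling by median of ratios takes away a centre that stood at a log2 fold of -0.18 in this comparison, -0.17 in cluster 3 over 1 and -0.15 in cluster 5 over 0, and within 0.03 of 0 in the other 4. Log2 folds in those 3 are higher by as much under that scaling, so that Cldn7 stood at 0.82 and Epcam at 0.99 here, Cdh1 at -0.33, and Cldn3 at 0.04 against -0.14 without it.

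Of 32 measured genes on the wider list, 5 were higher and 6 lower in clusters 0 and 4. Jam3, a junctional adhesion molecule, stood at 0.514 in clusters 0 and 4 and 6.66 in clusters 1 and 3 (log2 fold -3.46), and its relative Jam2 at 2.80 and 0.456 (2.38). Cldn22 stood at 1.54 and 0.0854 (log2 fold 3.15); its exons overlap Wwc2 on the other strand, which had 18 UMI in adult cells. Exons of Ctnnb1, Ctnna1, Cxadr, Tjp3 and Vcl, named below, also overlap protein-coding genes on the other strand. Gja1, the gap junction protein connexin 43, stood at 1.90 in clusters 0 and 4 and 0.285 in clusters 1 and 3 (2.38), and Ehf, an epithelial Ets factor, at 2.38 and 0.313 (2.58). Cldn2, a cation pore (-1.47), and Cldn8, a sealing claudin (-1.39), were lower in clusters 0 and 4, and Pvrl2, a nectin, was higher (1.36).

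Adult cluster 3 was set over cluster 1, both with multiciliated markers. Of 7 measured members 3 were higher: Cldn4 (112 and 3 UMI, log2 fold 5.95, ratio interval 59.9 to 884), Tjp1 (0.993 and 0.224, 1.76, interval 1.85 to 10.6) and Cldn7 (5.46 and 1.84, 1.52, interval 2.15 to 4.07). The Cldn4 interval treats UMI as independent, while 63 of the 112 UMI lay in 4 cells of cluster 3. Of all 5483 measured genes 20.8% were past the threshold, 11.7% higher and 9.06% lower. Cldn3 stood at 4.88 in cluster 3 and 5.06 in cluster 1, and Epcam at 4.38 and 3.85. On the wider list 10 of 40 measured genes were higher and 1 lower, with a median log2 fold of 0.51 against 0.02 over all genes. The transcription factor gene Ovol1 had 5 and 0 UMI, at least 4.41-fold higher by the ratio interval, or 8.01-fold against a floor of 3 counts over cluster 1. Cldn23 (2.46), the membrane protease gene Tmprss4 (2.31), the desmosomal plakophilin Pkp3 (1.98; 6 and 3 UMI, ratio interval 2.05 to 59.4), the catenin Ctnnd1 (1.77), the envoplakin gene Evpl (1.51; 4 and 3 UMI, interval 1.08 to 43.8) and Perp (1.43) were also higher. Genes of dissociation stress moved with this difference, at 207 per 10000 in cluster 3 and 65.8 in cluster 1, as did secretory markers, at 33.4 and 12.5, and their part in it was not tested. In the authors' merged clustering 19 of the 37 cells fell in merged cluster 6 and 17 in merged cluster 0. Merged cluster 6 held 21 adult cells with 109 Cldn4 UMI, a level of 11 (9.04 to 13.3), and merged cluster 0 held 197 adult cells with 4 (0.0705).

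Adult cluster 4 was set over cluster 0, both with secretory markers. Cldn4, with 0 and 105 UMI, was at least 3.33-fold lower in cluster 4 by the exact ratio interval, or 4.17-fold against a floor of 3 counts over cluster 4. Both bounds treat UMI as independent, while 84 of the 105 UMI lay in 13 cells of cluster 0. At equal depth Cldn4 was counted in 0 of 19 cells of cluster 4 (exact interval 0 to 17.6%) and 10 of 112 of cluster 0 (4.36 to 15.8%). These shares cannot be told apart. Cdh1 had 1 and 56 UMI (ratio interval 0.00373 to 0.870). Tjp1, with 0 and 23 UMI, was counted as lower by the pseudocount rule alone, since its floor in cluster 4 lies above its level in cluster 0. These were 3 of 8 measured members, with 29.8% of all 4474 genes past the threshold, 8.99% higher and 20.8% lower. Cldn3 (6.66 in cluster 4 and 4.29 in cluster 0, ratio interval 1.08 to 2.19) and Cldn7 (6.33 and 3.61, 1.20 to 2.50) were higher by less than 2-fold, and Epcam stood at 7.33 and 6.92. The members' median log2 fold was 0.00, or 0.11 with genes at 0 counts set to their bound, against -0.16 and 0.02 over all genes. On the wider list 2 of 30 measured genes were higher, Cldn22 (4.83 and 1.15, log2 fold 1.98) and the tricellular junction gene Lsr (1.08), and 9 lower. Among the lower, the desmosomal plaque gene Dsp had 1 and 57 UMI (ratio interval 0.00367 to 0.855) and Gja1 had 5 and 102 (0.131 to 0.992). The catenins Ctnnd1 (0 and 28 UMI), Ctnna1 (2 and 48) and Ctnnb1 (3 and 60) and the afadin gene Mllt4 (0 and 29) had ratio intervals that include 1. Depth moved with this difference, at a median of 1185 UMI in cluster 4 and 4107.5 in cluster 0, and so did stress genes, at 44.8 and 155. Their part was not tested.

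The 17 cells of adult cluster 5 below 10 smooth muscle UMI per 10000 were set over cluster 0. Of 8 measured members 1 was past the threshold, Cldn10, at 6.44 in cluster 5 and 0.595 in cluster 0 (34 and 30 UMI, log2 fold 3.23, ratio interval 6.43 to 18.3), with 36.1% of all 5339 genes past it, 17.3% higher and 18.9% lower. Every other member's ratio interval included 1. On the wider list 11 of 36 were higher and 6 lower, many on few counts. Gja1 had 1 and 102 UMI (log2 fold -2.88, ratio interval 0.00235 to 0.533) and Jam2 3 and 129 (-1.99, 0.0452 to 0.664). Jam3 had 0 and 27 UMI, not detectable as a difference at this depth. Klf5, an epithelial transcription factor, was higher (1.33 and 0.357, log2 fold 1.64, ratio interval 1.31 to 9.32), as was Perp, a desmosomal protein gene (2.46 and 0.813, 1.49, interval 1.49 to 5.76). Tjp3 (2 and 3 UMI, interval 0.532 to 55.6), Dsg2 (2 and 4, 0.432 to 33.3) and Cxadr (1 and 34, 0.00691 to 1.67) had intervals that include 1. Depth moved with this difference, at a median of 2164 UMI in the 17 cells and 4107.5 in cluster 0, and so did stress genes, at 102 and 155. Their part was not tested.

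P4 cluster 1 was set over P4 cluster 0. All 9 members were measured and 1 was past 2-fold, Cldn10 (2.29 and 0.895, 132 and 113 UMI, log2 fold 1.26, ratio interval 1.97 to 3.32). Of all 8721 measured genes 3.37% were past the threshold, 1.61% higher and 1.77% lower. In thinned cells the Cldn10 log2 fold was 0.86. Of 53 measured genes of the wider list 52 lay within 2-fold, and Cldn8 was higher (25 and 14 UMI, log2 fold 1.34, ratio interval 1.96 to 8.14). Multiciliated markers moved along, at 1.92 in cluster 1 and 9.49 in cluster 0, as did secretory markers, at 31.4 and 17.2, and stress genes, at 130.1 and 90.4. Their part was not tested.

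Between the ages, over genes in both tables, 2 of 9 measured members were past 2-fold in adult over P4 cells, Cdh1 higher and Cldn6 lower, with 21.8% of all 7283 measured genes past it, 11.5% higher and 10.4% lower. Cldn10 was just inside, at 0.625 in adult and 1.33 in P4 cells (log2 fold -0.98, ratio interval 0.363 to 0.602), and the members' median log2 fold was -0.43 against -0.09 over all genes. On the wider list 6 of 47 measured genes were higher and 7 lower in the adult. Jam3 stood at 3.70 in adult and 0.299 in P4 cells (log2 fold 3.25), Cldn2 at 0.487 and 0.0272 (2.21) and Jam2 at 1.45 and 0.381 (1.69). Cdh16, an adhesion gene known as kidney-specific cadherin, had 0 adult and 155 P4 UMI, at least 31.1-fold lower in adult cells by the ratio interval (38.7 against the floor), and Cldn19 had 0 and 44, at least 8.56-fold lower (11 against the floor). Klf5 stood at 0.421 in adult and 2.56 in P4 cells (log2 fold -2.35), and the vinculin gene Vcl at 0.414 and 1.57 (-1.70). Cell types were not matched between the ages: multiciliated markers summed to 83.5 per 10000 in adult and 7.12 in P4 cells, secretory markers to 70.7 and 21.7, and fibroblast markers to 2.17 and 6.86. Their part in these differences was not tested.

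Adult clusters 0 and 4 were also set over P4 cluster 1, the P4 cluster with higher secretory and lower multiciliated markers. Of 9 measured members 2 were lower in the adult cells, with 24.6% of all 6631 genes past the threshold, 7.96% higher and 16.6% lower. Cldn6 had 0 and 25 UMI, at least 6.15-fold lower by the ratio interval (8.15 against the floor), and Cldn10 stood at 0.621 and 2.29 (log2 fold -1.73, ratio interval 0.181 to 0.396). Cdh1 was just inside 2-fold, at 1.01 and 0.468 (0.97, interval 1.34 to 3.55), and Epcam stood at 6.97 and 6.66. This comparison shares cells with those above, so its values are not separate evidence. On the wider list 5 of 46 measured genes were higher and 11 lower. Jam2 (2.80 and 0.260, log2 fold 3.01), Cldn22 (2.19), Gja1 (2.11) and Cldn23 (1.91) were higher, and Klf5 (0.337 and 3.55, -3.06) and Cldn1 (-1.92; 1 and 20 UMI, ratio interval 0.00123 to 0.320) lower. Cdh16 had 0 and 60 UMI, at least 15.4-fold lower by the ratio interval (19.6 against the floor). Cell types and depth were not matched here either: secretory markers stood at 138 per 10000 in adult clusters 0 and 4 and 31.4 in P4 cluster 1, fibroblast markers at 2.0 and 6.75, proliferation genes at 0.142 and 3.05, and the median depth at 3221 and 7029 UMI. Their part was not tested.

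**Figure D5:**
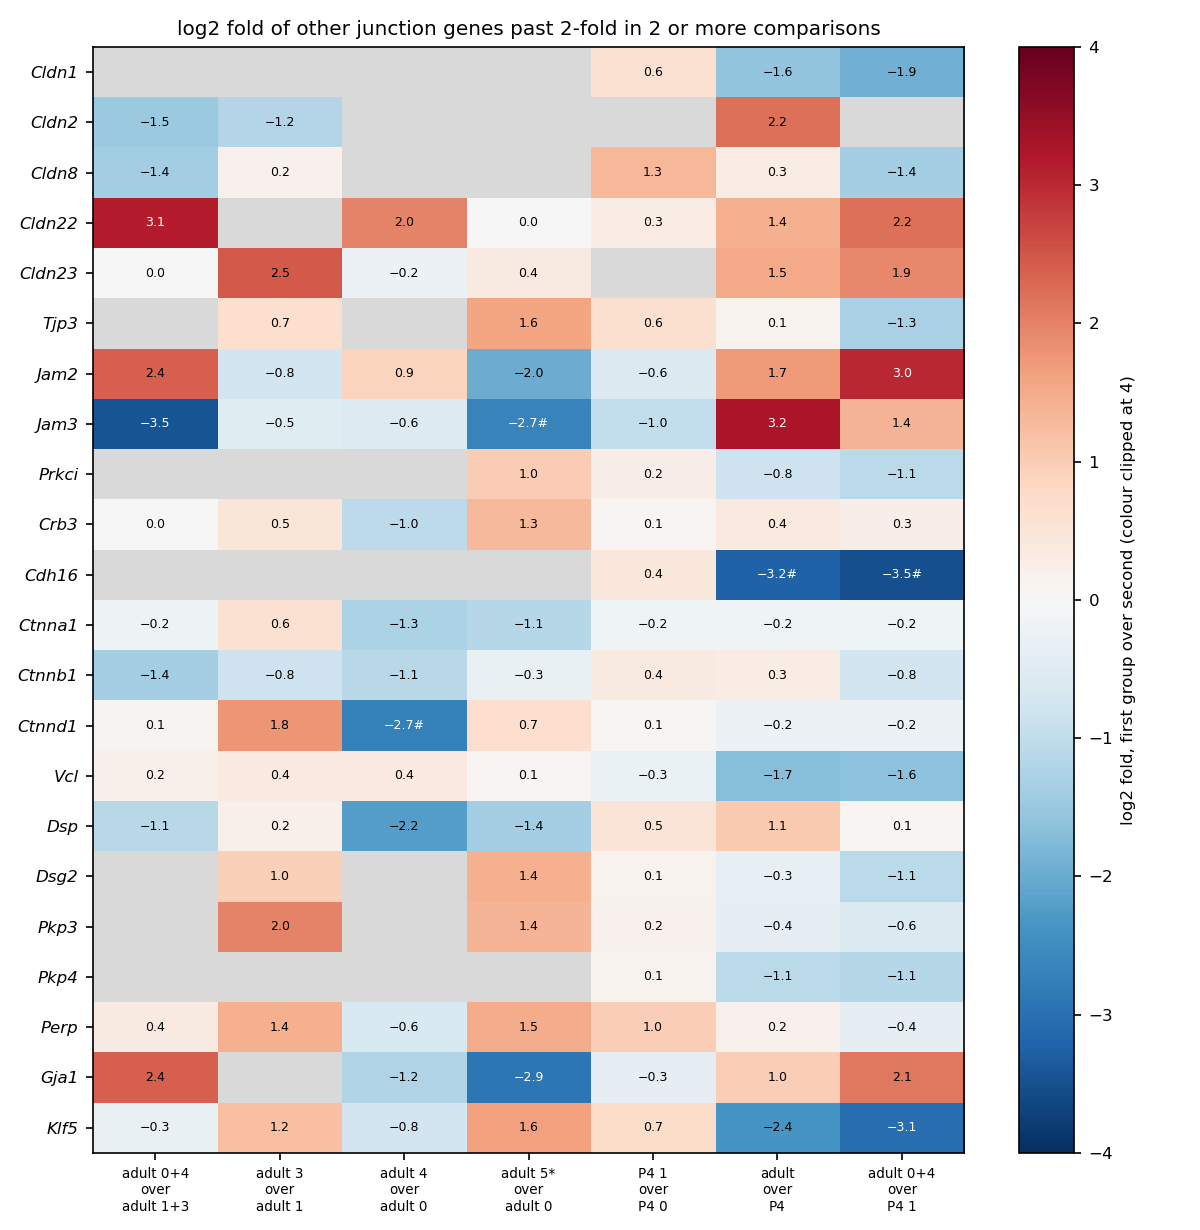
log2 fold of the 22 claudin, tight junction, adherens junction, desmosome, gap junction and regulator genes of the wider list that passed 2-fold in 2 or more of the 7 comparisons (columns, first group over second, colour clipped at 4); grey cells were not measured or not in both tables, # marks 0 counts on 1 side, and 5* is adult cluster 5 without its 8 cells with smooth muscle genes. Jam3 stands at -3.46 and Jam2 at 2.38 in the first column, and the P4 column holds 1 gene past 2-fold, Cldn8.

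The genes whose levels followed each member most closely were ranked by Pearson's r of log2(level + 0.1) over the 7 single-library clusters, among 4302 genes. The 7 points share 2 libraries, so r is a description. The genes named have the highest r of 4302 over only 7 points, and how high such an r stands without any link was not tested. Cldn4 was followed by Dnajc5 (0.982), Rpf1 (0.976) and Pim1 (0.976), Cldn3 by Saraf (0.986), Ufm1 (0.981) and Dad1 (0.976), and Cldn7 by the keratin gene Krt19 (0.967), Cwc15 (0.947) and Hddc2 (0.938). Cldn10 was followed by Rab20 (0.968), Vasp (0.965) and Scx (0.962), Ocln by Tmod3 (0.978), Lsm7 (0.967) and Ccdc136 (0.964), and Tjp1 by the catenin Ctnnd1 (0.980), Hnrnpc (0.972) and Zfpl1 (0.972). Cdh1 was followed by Tbpl1 (0.984), Nr2c2ap (0.970) and Ephx4 (0.967), and Epcam by Khk (0.968), Asah1 (0.940) and Osgep (0.906). For Cldn6 the measure only separates the ages, since all 5 adult clusters are at 0: Dlk1, Tpm3-rs7 and the imprinted H19 head that list. Tjp1 and Ctnnd1 both had 0 UMI in adult cluster 4, as did Cldn4, so their points there are set by the pseudocount.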

How the data were processed

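The authors deposited raw UMI counts per gene and cell and a cluster number per cell. Per the submitters' processing notes, Seurat 2.3.4, Cell Ranger and the build mm10 were used, with no role stated for each. The adult and P4 tables list different gene sets, so the totals behind levels and folds are over the 26897 shared genes. Genes outside that set, left out of those totals, held 1.79% of the adult UMI and 13.4% of those at P4. Depths, the cut on smooth muscle UMI and the thinning to 1000 UMI used all genes of each table. On average a thinned P4 cell thus kept fewer UMI of shared genes than a thinned adult cell, which lowers the P4 shares at equal depth. Of the 401 adult barcodes that occur under 2 prefixes the first prefix's column was read, and 399 had the same cluster under both. Cluster numbers of the merged table were used, for 402 adult and 239 P4 cells. No doublet caller or cell filter was run.

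Python 3.11.15 with numpy 2.4.6, pandas 2.3.3 and scipy 1.17.1 gave pooled levels, exact 95% Poisson and Clopper-Pearson intervals and exact conditional ratio intervals. The floor is 3 counts over a group. The comparison step recovered between 97.0% and 100.0% of 200 changed genes simulated in each of 7 comparisons. Recovery was not tested for sparse genes such as Ocln and Tjp1 or for differences near 2-fold. Nor was it tested for genes spread unevenly over cells, such as Cldn4. Named genes are the 9 members, of the 89 wider genes up to 8 past 2-fold per comparison by size of fold, and the 3 genes most like each member with at least 100 UMI. The members, lists and comparisons were chosen with earlier results of these data known. Wider genes under different symbols in the tables were not compared between the ages. Gene positions come from GENCODE M21, and alternatives are given at the end. The values of 1 wider gene are not reported here.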

Additional observations from a re-analysis of the deposited data

How the results depend on the processing

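Counting error is the only error covered: each age is 1 library, and adult cells are shallower than P4 cells. No paired analysis was possible because each group has 1 library and no test was run. Of 150 alternative counts of genes past 2-fold 106 stayed within 1.5 times the reported count and 44 did not. Of 506 alternative folds of the 9 genes 448 stayed, 58 moved and 0 of those past the threshold reversed. A fold stayed where it lay inside the ratio interval of the reported fold. That interval is wide for sparse genes, so the 448 is no measure of how stable their folds are. In 4 over 0, Cdh1 went from -2.18 to -0.57 with a mean over cells and was counted as stayed. Tjp1 there went from -2.48 to -0.94 with a pseudocount of 0.5 and was also counted as stayed. Without smooth muscle marker cells and with totals over all genes within 1 library, both added after seeing the data, no count moved. Counts are given as members, then wider list, in the reported form: clusters 0 and 4 over 1 and 3, 1 and 11; cluster 3 over 1, 3 and 11; 4 over 0, 3 and 11; 5 over 0, 1 and 17; P4 1 over 0, 1 and 1; adult over P4, 2 and 13; adult 0 and 4 over P4 1, 2 and 16.

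With a pseudocount of 0.5 the members fell to 0 in clusters 0 and 4 over 1 and 3, in P4 1 over 0 and in adult over P4, and to 1 in adult 0 and 4 over P4 1. The wider list gave 6, 4, 4, 5, 0, 6 and 7 in the 7 comparisons in the order above. Thinned to 1000 UMI, the members were 0 in clusters 0 and 4 over 1 and 3, P4 1 over 0 and adult over P4, and 1 in cluster 4 over 0 and adult 0 and 4 over P4 1. Thinned wider counts were 7 in 4 over 0, 10 in 5 over 0, 2 in P4 1 over 0, 3 in adult over P4 and 6 in adult 0 and 4 over P4 1. With a filter of 25% the members were 0 in clusters 0 and 4 over 1 and 3 and 1 in 4 over 0 and in both comparisons with P4 cells, and the wider list gave 7, 3, 7 and 8 in the first 4 comparisons, and 8 and 9 in the comparisons of the ages. With no filter the wider list gave 19 in 4 over 0 and 31 in 5 over 0. A mean over cells gave 3 members in 5 over 0, and 7 wider genes in 3 over 1 and 3 in P4 1 over 0. Totals without ribosomal protein and mitochondrial genes gave 2 members in clusters 0 and 4 over 1 and 3 and 2 wider genes in P4 1 over 0. Without the 5% of cells with the most UMI, 2 members passed in 5 over 0 and 2 wider genes in P4 1 over 0. The second column prefix gave 2 members in 5 over 0, all 25 cells of cluster 5 gave 2 members and 10 wider genes there, and cluster 1 alone as the lower side gave 3 members in clusters 0 and 4 over 1 and 3. The cause of these shifts was not tested beyond what each setting removes. The share of all genes past 2-fold was computed for the reported form only. A shift in these counts therefore cannot be told apart from a shift over all genes.

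Of the 13 folds of members past the threshold, Cldn10 in clusters 0 and 4 over 1 and 3 ranged from 0.65 to 1.47 (under 2-fold in 2 of 10 alternatives). Cdh1 in adult over P4 ranged from 0.76 to 1.31 (3 of 9), Cdh1 in 4 over 0 from -3.05 to -0.57 (1 of 8), Tjp1 there from -2.90 to -0.94 (1 of 8) and Cldn10 in P4 1 over 0 from 0.86 to 1.28 (1 of 8). Cldn6, set by the pseudocount, ranged from -2.83 to -0.89 in adult over P4 and from -2.84 to -0.90 in adult 0 and 4 over P4 1 (1 of 9 in each). Cldn4, Cldn7 and Tjp1 in 3 over 1, Cldn4 in 4 over 0 and Cldn10 in 5 over 0 and in adult 0 and 4 over P4 1 stayed past 2-fold in every alternative that gave a value. Cldn4 in 4 over 0 had 0 UMI in cluster 4, so its fold is also set by the pseudocount, and thinned it rested on 0 of 19 cells there. Thinned, Tjp1 in 3 over 1 had a UMI in 2 of 29 cells of cluster 3 (6.90%) and no longer counted as measured.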
